A study of Danio rerio with 14 samples.

Results

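Normal zebrafish thymus was profiled for H3K27ac in 3 samples, and 2558 regions were called in exactly 2 of them and in none of 4 T-cell tumors. Members were chosen by these calls alone, on every sequence of the GRCz11 build. They make up 2.60% of the 98262 regions obtained by merging the peaks of all 7 lists wherever they overlapped by at least 1 bp. Thymus 2 lacked the region in 1450 members (1.48% of all regions), thymus 3 in 596 (0.607%) and thymus 5 in 512 (0.521%). For comparison, 622 regions (0.633%) had a call in each of the 3 thymus samples and no tumor call. Since the calls chose the members, these numbers are a description and no test of tumor against thymus was made.

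The thymus samples, numbered 2, 3 and 5, came from zebrafish carrying the fluorescent reporter mCherry under the zebrafish lck promoter. They were harvested at 3 months and sorted for mCherry-positive cells. Tumors 1 to 4 came from fish carrying human IRF4 together with mCherry under that promoter and were harvested once a tumor phenotype had developed, at ages the labels do not give. The study's methods give mCherry sorting for the tumors as well and name a Singapore wild-type strain for its transgenic lines. The study reports lck expression in lymphocytes of the T and B lineages. The sorted cells of both groups are thus those in which the transgene promoter was on. IRF4 was present in the tumors from the same promoter. Whether a thymus library held cells of 1 fish or several could not be settled. The sorted population was not checked against T-cell markers, because the lists hold positions and no gene names.

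H3K27ac is histone H3 acetylated at lysine 27, a mark of active promoters and enhancers. Enhancers of this kind switch on and off as thymocytes pass from the stage without CD4 and CD8, through the stage with both co-receptors, to mature single-positive cells. A called peak is a stretch where the immunoprecipitated reads exceeded the whole cell lysate background. The study set the cutoff for a call on a p-value that was not adjusted for multiple testing. A missing call can stand for a mark that is absent, for one that is weak, or for one carried by few of the cells, and these cannot be told apart in bulk lists.

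The 3 thymus lists differed in extent. Thymus 2 had 31647 peaks over 9.05 Mb, thymus 3 had 40335 over 16.5 Mb and thymus 5 had 38814 over 18.4 Mb. Thymus 2, the sample missing most often, had the fewest peaks and the least covered length of the 3. With the 19809 widest peaks of each list, thymus 2 was missing in 558 of 1047 members, thymus 3 in 270 and thymus 5 in 219. That choice levels the number of peaks and not their width. The median peak was 178 bp wide in thymus 2, 207 bp in thymus 3 and 217 bp in thymus 5. The part of list extent in the missing calls was not tested. Members took 4.25% of the merged regions called in thymus 2, 5.56% of those in thymus 3 and 5.86% of those in thymus 5. In covered length they held 238 kb of thymus 2, 458 kb of thymus 3 and 483 kb of thymus 5, which was 2.63%, 2.78% and 2.63% of each list. In thymus 2 and thymus 5 the peak names include a batch word, which is missing from the names of the other 5 lists. The members lacking thymus 3 are therefore the regions shared by the lists with that word, and the word's part in them was not tested. Depth could not be read from the lists, which hold no read counts, and no counting interval is given.

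Regions of a thymus pair were called in tumors to very different degrees depending on the pair. Thymus 3 and thymus 5 shared 5822 regions that thymus 2 lacked, of which 24.9% had no tumor call and 33.3% were called in all 4 tumors. Thymus 2 and thymus 5 shared 1145 regions, with 52.1% in no tumor and 9.08% in all 4. Thymus 2 and thymus 3 shared 832 regions, with 61.5% in no tumor and 6.73% in all 4. The members lacking thymus 2 were thus the most numerous and also the smallest share of their pair. For comparison, 89.6% of the 47385 regions of a single thymus sample had no tumor call, against 5.59% of the 11118 regions of all 3 thymus samples, 71.8% of which were called in all 4 tumors. For the pair of thymus 2 and thymus 5, a single tumor accounted for another 22.6% of the regions. For the other pairs it accounted for 11.7% (thymus 3 and 5) and 12.9% (thymus 2 and 3).

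**Figure D1:**
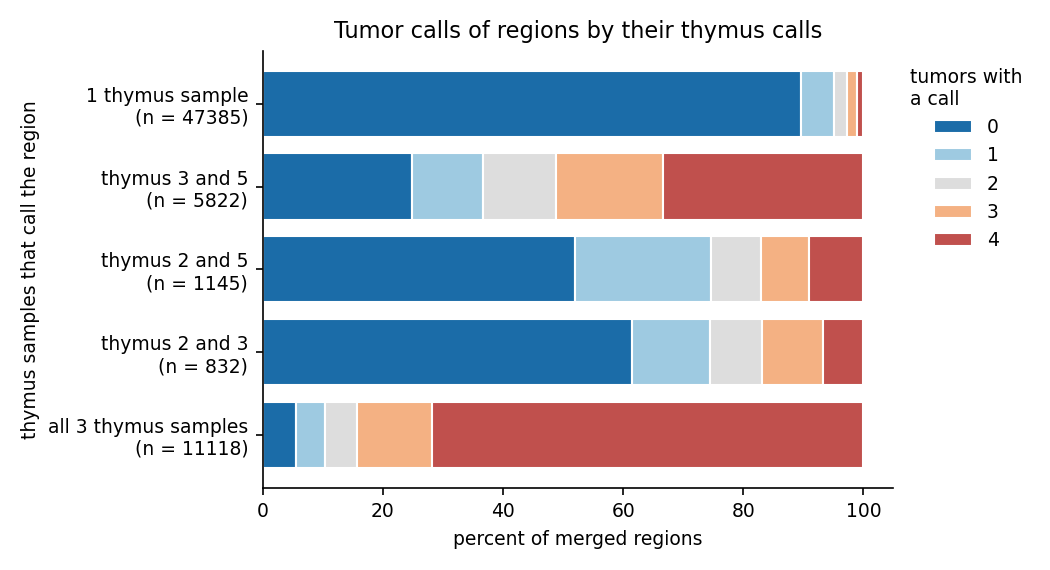
Percent of merged regions (horizontal axis) called in 0, 1, 2, 3 or 4 tumors, for regions of 1 thymus sample, of each pair and of all 3 thymus samples. The dark blue parts of the 3 pair bars are the members, which take 24.9% of the pair of thymus 3 and 5, 52.1% of thymus 2 and 5 and 61.5% of thymus 2 and 3.

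The rule's edges were narrow in places. In 80 members the peaks of the 2 thymus lists shared 10 bp or less, and the smallest overlap was 1 bp. A tumor peak lay within 10 bp of 25 members and within 100 bp of 193, and the smallest gap was 0 bp, where both edges abutted. Just outside the rule stood 1050 regions of exactly 2 thymus samples and 1 tumor. The tumor peak overlapped the thymus peaks by 10 bp or less in 12 of them and by 100 bp or less in 138.

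Members were short regions. Their median width was 288 bp, with 25 to 75% of them between 206 and 416 bp, the narrowest at 54 bp and the widest at 1858 bp. Together they spanned 0.876 Mb, and 44 (1.72%) reached 1 kb. The median was 307 bp for members lacking thymus 2, 278.5 bp for those lacking thymus 3 and 255.5 bp for those lacking thymus 5. The spread within each kind was far wider than the gap between these medians. Regions of a single thymus sample and no tumor were narrower, with medians of 124 bp (thymus 2), 127 bp (thymus 3) and 129 bp (thymus 5). Regions of all 3 thymus samples and no tumor had a median of 587.5 bp and regions of all 7 lists one of 1438 bp. A merged region grows with the number of peaks it joins, so this order is in part built into the merging.

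**Figure D2:**
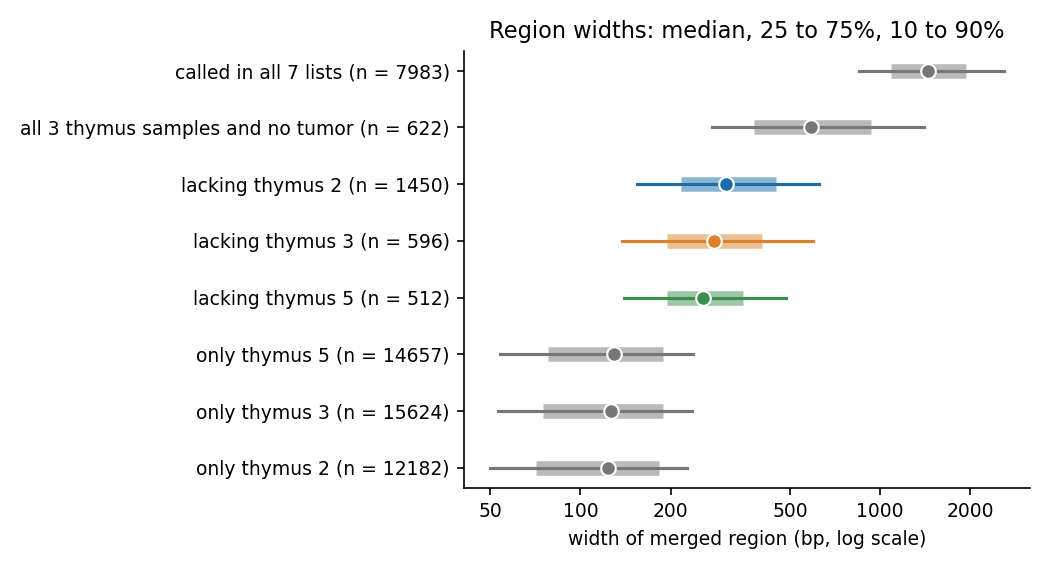
Width of merged regions in bp on a log axis, with the median as a point, the 25 to 75% range as a thick bar and the 10 to 90% range as a line. The 3 kinds of member, with medians of 307, 278.5 and 255.5 bp, lie between regions of a single thymus sample (124 to 129 bp) and regions of all 3 thymus samples (587.5 bp).

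Width can also be read within 1 list, which lessens the effect of joining. Each list's covered lengths were ranked over all the regions it calls, and a percentile of 50 marks the list's middle region. The 2 covered lengths of the members, 5116 in all, had a median percentile of 43.8. It was 60.3 for regions of all 3 thymus samples and no tumor, and 31.4, 27.8 and 26.6 for regions of thymus 2, 3 or 5 alone. By kind and list, the medians of members ran from 37.2 (thymus 5) to 50.9 (thymus 2), both in members lacking thymus 3. In the other kinds they ran from 42.1 to 45.1. Pooled over kinds and lists, members were therefore slightly narrower than the middle region and, at the median, wider than unshared ones. A wide peak overlaps a peak of another list more easily, so this order too is in part built into the rule. A small share were at a list's lower limit of width. In members lacking thymus 2 this held for 4.21% of the thymus 3 calls and 3.59% of the thymus 5 calls.

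The 2 lists that called a member rarely drew it alike. In members lacking thymus 2, the median covered length was 195 bp in thymus 3 and 200 bp in thymus 5, while the median length covered by both was 93 bp. Thymus 3 was the wider in 714 of these and thymus 5 in 733. In members lacking thymus 3 the medians were 188.5 bp in thymus 2 and 172 bp in thymus 5, with 101 bp shared. Thymus 2 was the wider in 325 and thymus 5 in 266, although thymus 2 had the smaller covered length over the genome. Part of this excess lay in the 3 windows of 100 kb with the most members, described below. These windows held 35 of the 596 members lacking thymus 3, and in most of the 35 thymus 2 was the wider. In members lacking thymus 5 the medians were 159.5 bp in thymus 2 and 186 bp in thymus 3, with 78 bp shared. At least 50% of the region was covered by both lists in 28.6%, 31.5% and 28.5% of the members lacking thymus 2, 3 and 5. Nearly every member was 1 peak in each list, as in 1403 of the 1450 lacking thymus 2.

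Distance to regions of all 3 thymus samples was measured from edge to edge on the same sequence, with regions counted whatever their tumor calls. The median gap of members was 3272 bp, with 25 to 75% between 334 and 22692 bp. Within 1 kb lay 949 members (37.1%), within 10 kb 1597 (62.4%) and within 50 kb 2141 (83.7%). Only 22 (0.860%) were over 500 kb away, and 37 stood on sequences without such a region. The 3 kinds were close to each other, with medians of 3585 bp (lacking thymus 2), 3038 bp (lacking thymus 3) and 2861.5 bp (lacking thymus 5). Within 10 kb were 60.4%, 64.9% and 65.2% of them.

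Members stood nearer to such regions than unshared regions did. The median gap was 35930 bp for regions of thymus 2 alone, 22620.5 bp for thymus 3 alone and 22065 bp for thymus 5 alone, and 28.5% to 35.7% of them lay within 10 kb. For regions of a single tumor the medians ran from 44870 bp in tumor 1 to 62502.5 bp in tumor 2. Regions of all 3 thymus samples and no tumor lay 2416 bp from another region of all 3 samples, with 67.7% within 10 kb. In this measure the members were closer to the regions of all 3 samples than to those of 1. A member needs peaks of 2 thymus lists to overlap, which is easier where thymus peaks are dense. This order is therefore also in part built into the rule. The gaps themselves depended on the processing. Merging peaks up to 1000 bp apart raised the median of members to 17445 bp, with 35.5% within 10 kb, and in an alternative added after seeing the data it raised those of regions of a single thymus sample to between 40865.5 and 57047 bp, with 15.8% to 21.0% within 10 kb. Requiring no tumor peak within 1000 bp gave 10137 bp for members and 35805 to 50075.5 bp for regions of a single thymus sample. With peaks of at least 128 bp the median of members was 5142.5 bp, and with the 19809 widest peaks of each list 7899.5 bp.

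**Figure D3:**
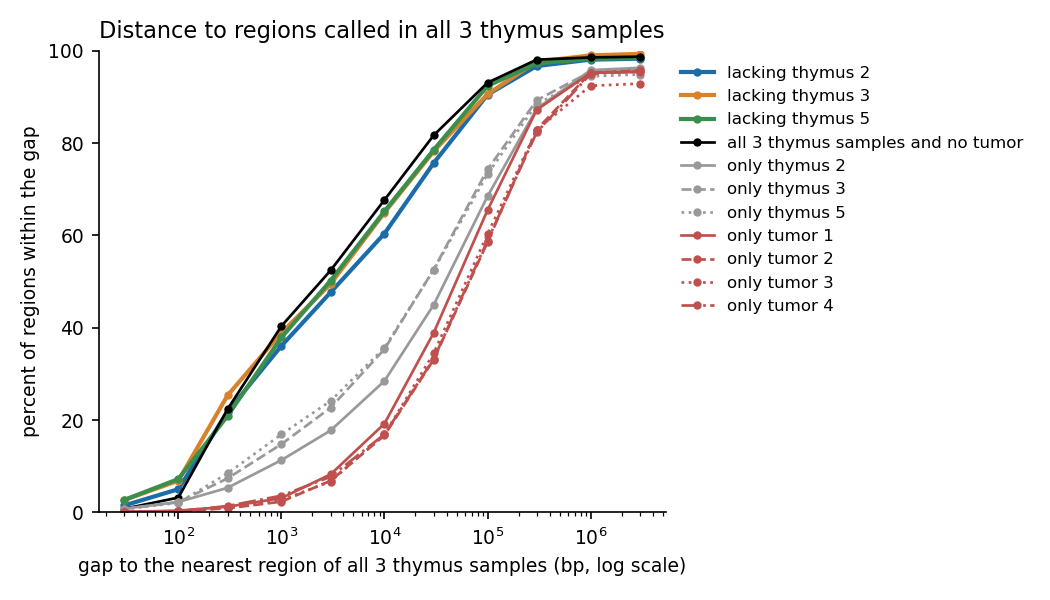
Cumulative percent of regions (vertical axis) whose nearest region of all 3 thymus samples lies within a gap given in bp on a log axis, for each kind of member, for regions of all 3 thymus samples and no tumor, and for regions of a single list. The 3 member curves pass 10 kb at 60.4%, 64.9% and 65.2%, close to the black curve at 67.7% and above every single-list curve. This order is in part built into the rule that chose the members.

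The nearest such region was usually one shared with the tumors. Of the 949 members within 1 kb, 547 (57.6%) had as neighbour a region called in all 4 tumors and 142 (15.0%) one called in none. Of the 648 members at 1 to 10 kb, the shares were 49.2% and 19.6%. Over all 11118 regions of all 3 thymus samples the shares were 71.8% and 5.59%. Members were themselves chosen for having no tumor call, and the same neighbour can count for several members. The difference from the shares over all such regions is therefore a description only. The members lacking thymus 3 at 1 to 10 kb, 155 in number, had 31.6% of neighbours in no tumor and 32.3% in all 4. When the gap was taken to regions of all 3 thymus samples and no tumor, the median rose to 432184 bp and 15.0% of members lay within 10 kb. That share was 13.7% of those lacking thymus 2, 18.6% of those lacking thymus 3 and 14.5% of those lacking thymus 5. It was 26.2% for regions of all 3 thymus samples and no tumor, measured to another such region. For regions of a single thymus sample it was 4.27% to 4.50%.

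Absence of a tumor call did not mean absence of tumor peaks nearby. The nearest peak of any tumor lay at a median of 1020 bp, within 1 kb of 49.6% of members and within 50 kb of 97.3%. Within 1 kb it lay beside 38.6% of the regions of all 3 thymus samples and no tumor, and beside 19.7%, 26.9% and 29.9% of the regions of thymus 2, 3 and 5 alone. By tumor, 34.9%, 32.0%, 38.3% and 25.7% of members had a peak of tumors 1, 2, 3 and 4 within 1 kb, and tumor 4 had the shortest list, with 19809 peaks. Members lacking thymus 3 lay closer to tumor 3 than to the other tumors, with a median of 1280 bp against 5055, 5807.5 and 6630.5 bp for tumors 1, 2 and 4. In members lacking thymus 2 the medians were 2888, 3556, 2917 and 7232 bp for tumors 1 to 4.

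The missing thymus sample often had a peak close by. The nearest peak of thymus 2 lay at a median of 1578.5 bp from the members it lacked, with 42.1% within 1 kb. For thymus 3 the median was 693.5 bp, with 56.0% within 1 kb. For thymus 5 it was 555.5 bp, with 59.4% within 1 kb. A region of all 3 thymus samples always holds a peak of the missing sample. Such a region lay within 1 kb of 36.1%, 38.9% and 37.9% of the members lacking thymus 2, 3 and 5. The closeness to the missing sample is therefore in part the gap described above, and its share over all merged regions was not computed. Members of different kinds also stood side by side, since 148 (5.79%) had a member of another kind within 1 kb, among them 52 of the 512 lacking thymus 5. No like share was computed for other regions.

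On chromosomes 1 to 25 lay 2159 members (84.4%, against 83.4% of all regions), 353 (13.8%) were on alternate sequences and 46 (1.80%) on unplaced scaffolds. By chromosome, members took from 1.88% of the merged regions on chromosome 12 (47 of 2503) to 3.61% on chromosome 21 (109 of 3019). On chromosome 17 there were 102 of 3084 (3.31%). Those lacking thymus 3 outnumbered the others there, with 47 against 36 lacking thymus 2 and 19 lacking thymus 5. Of the 47, 14 lay in a single window of 100 kb, from 39900001 to 40000000. Another member lay within 10 kb of 830 members (32.4%). Joining members with gaps of up to 10 kb gave 96 chains of 3 or more, which held 374 members, and 28 of these chains held a single kind. Since 1450 of the 2558 members lacked thymus 2, chains of a single kind can arise from that share. Neighbours and chains were not counted over all merged regions, so these numbers do not show whether members cluster more than other regions. Most 100 kb windows with a member held just 1, as in 1298 cases.

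The window with the most members on chromosome 21, from 11500001 to 11600000, held 10 and lay near cd8a, the gene of a chain of the CD8 co-receptor. Closest gene names were taken from the study's own table of annotated regions, of which only a part was at hand, and they stand for proximity and not for a tested link. That a member carries a name there is no finding, since the table lists regions the study itself selected from these samples. In the newer GRCz12tu annotation, used for gene order only, zgc:114104 (there zmat1), cd8b and cd8a follow each other between entpd2b and cast. Of the 10 members, 9 lacked thymus 2 and 1 lacked thymus 5. Thymus 3 had 26 peaks over 15.3 kb of the window and thymus 5 had 24 over 11.8 kb, against 10 over 2.06 kb in thymus 2. The window was chosen for its members, most of which lacked thymus 2, so this order is in part built into the choice. Tumor 2 had 11 peaks there and tumors 1, 3 and 4 had 1 each.

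The member closest to zgc:114104, at chr21:11534289-11536061, ranked first of all those lacking thymus 2. It measured 1773 bp, and thymus 3 covered 1773 bp of it and thymus 5 covered 1719 bp. The nearest thymus 2 peak stopped 263 bp away. With cd8a as closest gene, 4 members lacking thymus 2 stood in 2 pairs. In chr21:11559492-11560851 thymus 3 covered 1246 bp and thymus 5 covered 885 bp, and in chr21:11558795-11559204 they covered 401 and 377 bp. In chr21:11550769-11551816 they covered 874 and 709 bp, and in chr21:11550079-11550498 they covered 402 and 252 bp. In all 4, thymus 3 was the wider. The first pair lay 921 and 224 bp from a region of all 3 thymus samples and no tumor, and the nearest tumor peaks were 25320 and 26480 bp off. This stretch thus held members and a fully shared thymus region side by side, and no tumor peak was closer than 17764 bp to any of the 4.

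Other members lacking thymus 2 lay near receptor and transcription factor genes. gpr173, an orphan G protein-coupled receptor, lies between foxp3b and sema3gb in the GRCz12tu annotation. Near it, chr8:23439371-23441228 was covered over 1756 bp in thymus 3 and 1537 bp in thymus 5. It stood 56269 bp from any region of all 3 thymus samples. tnfrsfa, of the tumor necrosis factor receptor superfamily, lies between LOC100331807 and unc5da in GRCz12tu. Near it, chr21:16204242-16205857 was covered over 1616 and 1290 bp, with the closest tumor peak at 55079 bp. fli1a, of the ETS transcription factor family, lies between ets1 and kcnj1a.6 in GRCz12tu. Near it, chr18:48395242-48396663 was covered over 1422 and 818 bp. It lay 421 bp from a region of all 7 lists, so that tumor peaks were close to this member. The remaining 2 of the 6 ranked highest, chr23:9859157-9860586 and chr10:8355461-8356801, measured 1430 and 1341 bp and carried no gene name.

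**Figure D4:**
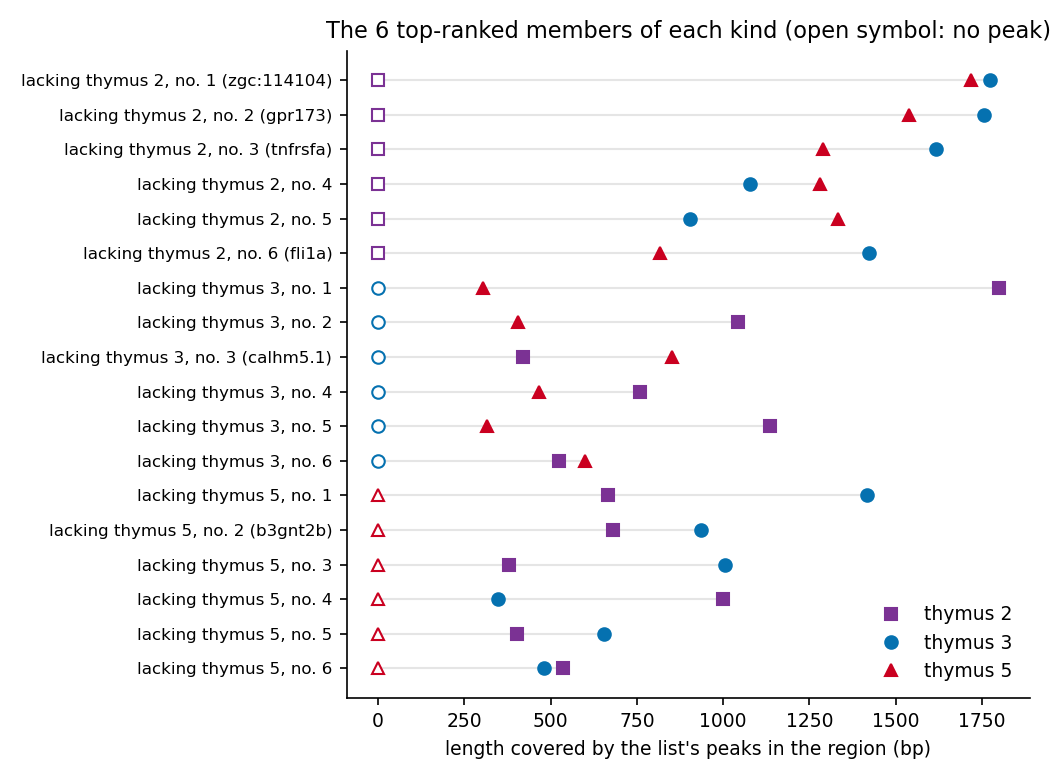
Length in bp covered by the peaks of each thymus sample in the 6 members of each kind with the highest mean within-list percentile, on chromosomes 1 to 25. Open symbols at 0 mark the sample without a peak, and closest gene names stand in parentheses. The paired symbols lie near each other in the first members lacking thymus 2, while thymus 2 reaches 1798 bp and thymus 5 304 bp in the first member lacking thymus 3.

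Genes of thymocyte migration and signalling named other members. They, cd8a, myca and id3 came from a longer list of genes looked for by name. That list also held T-cell receptor, recombination and further differentiation genes, and genes of epithelial, B, myeloid and red blood cells. Only 12 members are named for listed genes, in order of mean percentile. Other listed genes may have members that are not named here, so these names do not show that members favour thymocyte genes. ccr9a encodes a chemokine receptor known in mammals for guiding progenitors to the thymus, and ccr7 one known there for the movement of maturing thymocytes. Near ccr9a, chr2:32818835-32819821 was covered over 887 bp in thymus 3 and 987 bp in thymus 5. Only 115 bp separated it from the nearest peak of thymus 2, which belonged to the neighbouring member chr2:32817803-32818719, lacking thymus 3 and covered over 524 bp in thymus 2 and 601 bp in thymus 5. Adjacent members thus lacked different samples. That split depends on the merging. Joining peaks up to 1000 bp apart would put both into a single region with peaks of all 3 thymus samples. This stretch was followed further after its values were seen. Within 50 kb on either side lay 10 members, 4 lacking thymus 2, 2 lacking thymus 3 and 4 lacking thymus 5. They stood among 43 merged regions, and 10 regions were called in all 3 thymus samples. The widest of the 10, chr2:32803613-32805064, lacked thymus 5 and was covered over 667 bp in thymus 2 and 1416 bp in thymus 3. It lay 245 bp from a region of all 7 lists, with thymus 5's nearest peak at 279 bp.

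Near ccr7, chr6:10933106-10933707 lacked thymus 2 and was covered over 405 bp in thymus 3 and 427 bp in thymus 5, at 491 bp from a region of all 3 thymus samples and no tumor. A narrower ccr7 member, chr6:10925014-10925322, lacked thymus 3 and had 288 bp in thymus 2 and 64 bp in thymus 5. For cxcr4a, another chemokine receptor gene, chr6:12917608-12917945 lacked thymus 5, with 338 bp in thymus 2 and 129 bp in thymus 3. For il7r, which encodes a chain of the interleukin 7 receptor, chr21:22438730-22439015 also lacked thymus 5, with 123 and 286 bp. Its neighbour 206 bp away was called in 2 tumors. The chemokine receptor genes were thus near members of every kind.

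For myca, a gene of the Myc family of growth regulators, chr24:10623007-10623858 lacked thymus 2. Thymus 3 covered 852 bp and thymus 5 covered 438 bp, and a region of all 3 thymus samples and no tumor lay 71 bp away. id3 encodes an inhibitor of the E-protein transcription factors that direct thymocyte development. It named 2 members. In chr17:27278129-27279059, lacking thymus 2, thymus 3 covered 272 bp and thymus 5 covered 931 bp, and thymus 2 had a peak 101 bp away. In chr17:27316682-27316893, lacking thymus 5, thymus 2 covered 212 bp and thymus 3 covered 194 bp. It lay 310 bp from a region of all 3 thymus samples and no tumor, and 10002 bp from the closest tumor peak.

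Further members lacking thymus 2 lay near genes with roles outside thymocyte development. chr21:9175013-9176509 (sdad1) was covered over 512 bp in thymus 3 and 1440 bp in thymus 5, at 207087 bp from a region of all 3 thymus samples. chr16:45187202-45188306 (fxyd1, of a family that regulates the sodium pump) was covered over 1105 and 663 bp. chr15:21588936-21590000 (bco2b, a carotenoid-cleaving enzyme) was covered over 650 and 1065 bp, with no tumor peak within 30613 bp.

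In 4 of the 6 highest-ranking members lacking thymus 3, thymus 2 covered the greater length. chr7:64609389-64611186 was covered over 1798 bp in thymus 2 and 304 bp in thymus 5. Of the other 5, 3 lay together on chromosome 7, at chr7:55073826-55074868, chr7:55090249-55091006 and chr7:55071075-55072209, with 1043, 758 and 1135 bp in thymus 2 and 406, 466 and 315 bp in thymus 5. Near calhm5.1, of the calcium homeostasis modulator family, thymus 5 was the wider instead. There chr16:32216261-32217177 had 419 bp in thymus 2 and 853 bp in thymus 5, and thymus 3 had a peak only 57 bp away.

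Of the members lacking thymus 5, chr17:24136408-24137462 lay near b3gnt2b, which encodes a glycosyltransferase that extends sugar chains. It was covered over 682 bp in thymus 2 and 935 bp in thymus 3, and thymus 5 had a peak 266 bp away. In chr2:21973865-21974870 thymus 2 covered 380 bp and thymus 3 covered 1006 bp, with the nearest thymus 5 peak at 43 bp. In chr7:55091572-55092570 the order was the opposite, with 999 bp in thymus 2 and 349 bp in thymus 3. In chr17:41023745-41024424 thymus 2 covered 402 bp and thymus 3 covered 656 bp, and a tumor peak lay 33 bp off. In chr22:15270312-15271109 they covered 536 and 482 bp, at 282 bp from a region of all 7 lists.

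The 3 windows with the most members held 35 of the 596 members lacking thymus 3 (5.87%), and in each of them thymus 2 had the most peaks. The window of chromosome 17 from 39900001 to 40000000 held 15 members, 14 lacking thymus 3 and 1 lacking thymus 5. Thymus 2 had 54 peaks over 20.4 kb there, thymus 3 had 12 over 2.10 kb and thymus 5 had 30 over 6.30 kb. The window of chromosome 2 from 19400001 to 19500000 held 12 members, 10 of them lacking thymus 3, with 63, 12 and 19 peaks in thymus 2, 3 and 5. The window of chromosome 7 from 55000001 to 55100000 held 12 members, 11 of them lacking thymus 3, with 29, 7 and 20 peaks. Tumor 3 was the tumor with the most peaks in each, with 11, 24 and 10, and no other tumor had more than 4. In the window of chromosome 17 the widest member lacking thymus 3, chr17:39936755-39937635, was covered over 881 bp in thymus 2 and 172 bp in thymus 5. In that of chromosome 2 it was chr2:19473066-19474600, with 1535 and 234 bp.

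By number of peaks, the thymus lists stood there in the reverse of their order over the genome, where thymus 2 was the shortest. All 5 windows were chosen for holding many members. Where most of these lacked the same sample, few peaks of that sample are in part built into the choice. Input coverage was not analysed here, and its part in these windows was not tested. The fifth window, chromosome 20 from 24000001 to 24100000, held 9 members, all lacking thymus 2, with 9, 32 and 37 peaks in thymus 2, 3 and 5. Among its members 3 had cx52.6, a connexin gene of gap junctions, as closest gene, a name given here after the values were seen. The widest of these, chr20:24048117-24048566, was covered over 344 bp in thymus 3 and 386 bp in thymus 5. Without the members of all 5 windows, an alternative added after seeing the data, 2500 remained, 1432 lacking thymus 2, 561 lacking thymus 3 and 507 lacking thymus 5, with a median gap of 3401 bp to a region of all 3 thymus samples.

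**Figure D5:**
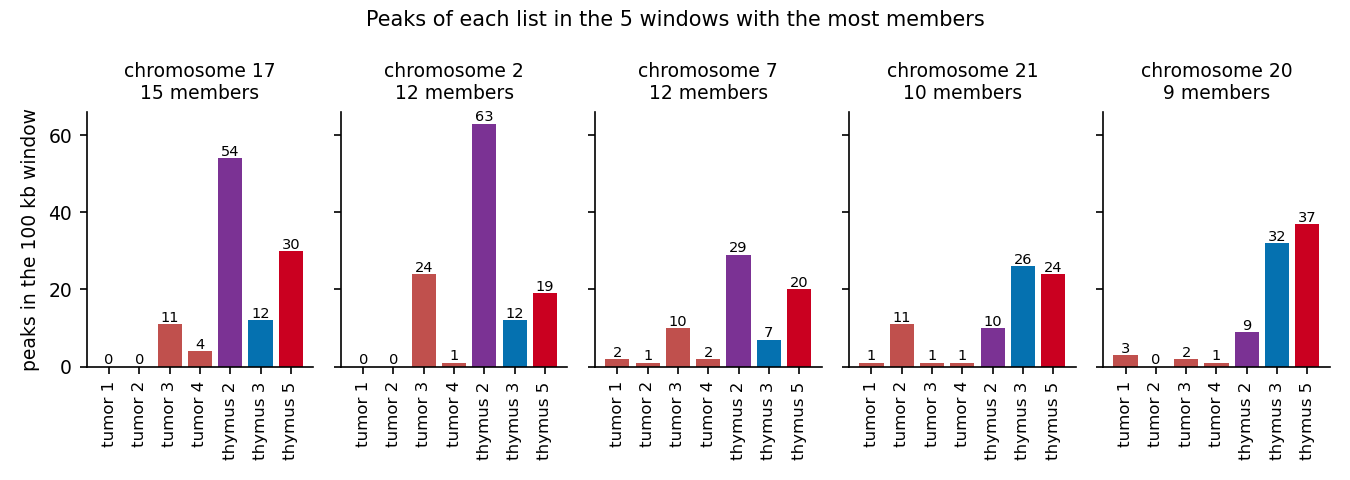
Number of peaks of each list in the 5 windows of 100 kb with the most members, 1 panel per window. Thymus 2 has the tallest bar in the first 3 windows (54, 63 and 29 peaks) and lies below thymus 3 and thymus 5 in the windows of chromosomes 21 (10 peaks) and 20 (9 peaks). The windows were chosen for their members, so the low bar of the sample most members lack is in part built into the choice.

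At the extremes of distance, the closest member lacking thymus 2 was chr1:49511061-49511329, which abutted a region of all 3 thymus samples with a gap of 0 bp. The closest lacking thymus 3 was chr16:40373388-40373616 near mettl6, at 8 bp, and the closest lacking thymus 5 was chr13:32899880-32900388, at 1 bp. The most distant of every kind lay on chromosome 4. They were chr4:65209226-65209404 at 1319681 bp (lacking thymus 2), chr4:35985495-35985681 at 1395378 bp (lacking thymus 3) and chr4:52031386-52031524 at 1039715 bp (lacking thymus 5). These 3 were narrow, at 179, 187 and 139 bp. The first of them lay 8 bp from a tumor peak, so that distance from the shared thymus regions was not distance from every peak.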

How the data were processed

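Peak positions of 7 H3K27ac ChIP-seq libraries were analysed, and 7 input libraries were not. Per the labels and methods, single-end 50 bp reads were mapped by the authors to GRCz11 (Bowtie2) and stripped of duplicates (SAMtools), and MACS2 2.1.1.2016030 called broad peaks for each sample over its whole cell lysate. The deposited lists hold positions and peak names, and the list of tumor 1 also holds scores, which were not used.

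Peaks were merged across lists at 1 bp of overlap or more, and a region counts as called in every list with a peak in it. Gaps run from edge to edge. Coordinates are 1-based. Groups were not compared by a test, because the calls chose the members and regions are not replicates. Dixon's criterion served only to pick out tumors far from the others. Members and gene lists were chosen with earlier results of these data known. Named regions are the 6 per kind with the highest mean within-list percentile of covered length on chromosomes 1 to 25. So are the 5 windows of 100 kb with the most members and the extremes of distance. The 12 members with a closest gene of highest percentile were also named. Members near genes of a list, 12 in number, were named too, and that list held thymocyte genes and genes of other cell types. The genome and annotation of GRCz11 were not used here, so no sequence or gene feature is given. The code, in Python 3.11.15 with NumPy 2.4.6, SciPy 1.17.1 and matplotlib 3.10.9, was tested on simulated data. Alternatives covered merging, call rules, peak width, list length, bins, sequences and each list left out.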

Additional observations from a re-analysis of the deposited data

Results flagged for a closer look

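Over the 4 tumors, 13 measures were compared for a tumor far from the others, and 4 passed Dixon's 95% limit for 4 samples. Chance flags about 1 in 20 groups of independent samples, but these measures overlap and rest on members chosen by having no tumor call and on windows chosen for holding many members, so the number past the limit cannot be read against that rate and the values are given as a description. Members lacking thymus 2 lay at a median of 7232 bp from the nearest peak of tumor 4, against 2888, 3556 and 2917 bp for tumors 1, 2 and 3. In the window of chromosome 2, tumor 3 had 24 peaks and tumors 1, 2 and 4 had 0, 0 and 1. In that of chromosome 7, tumor 3 had 10 peaks and the others had 2, 1 and 2. In that of chromosome 21, near cd8a, tumor 2 had 11 peaks and the others had 1 each.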

How the results depend on the processing

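No paired analysis was possible because no groups were compared by a test. Alternatives other than leaving out a list gave 66 values over 7 results. Of these values, 27 stayed within 1.5 times a count or within the spread over the 3 thymus pairs, and 39 did not. Several values come from the same alternative, so they are not separate checks. Merging peaks up to 1000 bp apart gave 1633 members (910 lacking thymus 2, 350 lacking thymus 3), a median width of 641 bp and a median gap of 17445 bp to a region of all 3 thymus samples, with 35.5% within 10 kb. With peaks of at least 128 bp, the largest minimum of the lists, there were 1542 (942, 341 and 259 lacking thymus 2, 3 and 5), with 381 bp, 5142.5 bp and 56.6%. With the 19809 widest peaks of each list there were 1047 (558, 270 and 219), with 507 bp, 7899.5 bp and 52.0%. Requiring no tumor peak within 1000 bp left 1289 (754, 274 and 261), with a gap of 10137 bp and 49.0%. Requiring peaks over at least 50% of a region gave 2297 (1611, 397 and 289 lacking thymus 2, 3 and 5). Bins of 1 kb gave 1540 in all (1309, 159 and 72). The share lacking thymus 2 was larger under both rules, so it depends on how a call is made. Requiring both lists to share at least 50% of the region left 749 (415, 188 and 146). Width as the length covered by both lists was 92 bp, and the gap between centres 4278 bp. Against regions of all 3 thymus samples and no tumor, the gap was 432184 bp, with 15.0% within 10 kb. Leaving out each list in turn gave 1273 to 3049 members and a median width of 291 to 347 bp. Counts by kind and gaps need all 3 thymus lists, so their ranges come only from leaving out a tumor. There were then 1507 to 1749 members lacking thymus 2, 614 to 730 lacking thymus 3 and 518 to 576 lacking thymus 5. The gap ranged from 3330 to 4158 bp and the share within 10 kb from 60.2% to 62.1%. Without thymus 3 the members, then called in both other thymus samples, numbered 1273, without thymus 5 1275, and without tumor 3 3049. Members lacking thymus 2 were the most numerous kind in every alternative that gave all 3 kinds, and the order of the others turned only with merging up to 1000 bp, where 373 lacked thymus 5. The lists hold no read counts, so depth behind a missing call could not be assessed.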
